A study of Mus musculus with 2 samples.

Results

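The colony-stimulating factors are the cytokines that control the production, survival and activity of macrophages and granulocytes. The family examined here held 10 genes, of which 4 encode ligands (Csf1, Csf2, Csf3 and Il34) and 6 encode receptor chains (Csf1r, Csf2ra, Csf2rb, Csf2rb2, Csf3r and Il3ra). They were read from every probe set that the annotation of the Affymetrix Mouse Genome 430 2.0 array assigns to exactly 1 gene, where that gene is a member. A probe set is a group of short probes on the array that together give 1 signal for a transcript. This gave 17 probe sets of the 34945 with 1 gene, and 10 genes of 18193. Macrophages grown from the bone marrow of C57BL6 mice were either treated with lipopolysaccharide (LPS), the Gram-negative cell wall component that Toll-like receptors sense, or kept as untreated controls. The culture medium of both groups was RPMI with 10% FBS and MCSF, so the product of one of the members, Csf1, was supplied from outside in both. Each condition had 1 array, the dose and time of LPS are not given in the labels, and the labels do not say how many mice gave the cells. No difference below has a replicate check, no test was made, and every value is only as precise as 1 array per condition allows.

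The ligands reach their receptors by separate routes. M-CSF, the product of Csf1, and interleukin-34, the product of Il34, both bind the receptor tyrosine kinase encoded by Csf1r, which maintains macrophages and defines the lineage. GM-CSF, the product of Csf2, binds a specific alpha chain (Csf2ra) that pairs with the common beta chain (Csf2rb). Interleukin-3 binds its own alpha chain (Il3ra) with the same beta chain or, in mice, with a second beta chain encoded by Csf2rb2, which serves interleukin-3 alone. G-CSF, the product of Csf3, binds a homodimeric receptor (Csf3r) best known from neutrophils. The alpha and beta chains and Csf3r have no kinase of their own and signal through Janus kinases and STAT proteins. Activated macrophages are a known source of M-CSF, GM-CSF and G-CSF.

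Signals are linear MAS5 values as deposited, and a log2 ratio is always LPS over control. A signal below its array's median over all non-control probe sets was set to that median, called the floor, which was 26.7 on the LPS array and 35.1 on the control array. A gene counts as measured if its brightest probe set was at or over the floor on 1 array or both. The median log2 ratio of the 11722 measured genes was -0.42, so that the median gene read lower on the LPS array. Ratios centred on that median are given beside the deposited ones where they matter. The shift was larger among dim genes (median -0.61 at a mean log2 signal of 7 to 9) than among bright ones (-0.08 at 11 to 14). The 8 markers of macrophages, the labelled cell type, all reached the floor on both arrays, and Adgre1, which encodes F4/80, had signals of 7338 on the LPS array and 6967 on the control array. The other 7 differed in both directions, from Mrc1 at -0.93 and Mertk at -0.74 to Cd14 at 1.37 and Fcgr1 at 2.01 on the log2 scale. Of the markers of other blood cells on the array, 1 of 4 dendritic cell, 1 of 6 T and NK cell and 1 of 4 B cell genes were measured.

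Of the 10 members, 9 were measured, and 2 of them, the ligand gene Csf1 and the receptor gene Csf3r, read higher with LPS by 2-fold or more. This compares with 8.22% of all measured genes. None of the 9 read lower by 2-fold or more, compared with 26.2% of all measured genes, and 7 lay within 2-fold, compared with 65.5%. After median centring 3 members passed 2-fold on the higher side, with Csf3 added (13.1% of all genes), 0 on the lower side (15.3%) and 6 lay within 2-fold (71.6%). The median log2 ratio of the 9 measured members was 0.14, against -0.42 over all genes. These counts do not cover all members alike, because Csf3 and Il34 were measured through the LPS array alone and Csf2 not at all. With their control signal set to the floor, Csf3 and Il34 could not read lower by 2-fold or more. Their ratios are lower bounds, and with the 35th percentile as floor both passed 2-fold, at log2 ratios of 1.68 and 1.06. The shares of all genes likewise include genes that reached the floor on 1 array alone. The members that reached the floor on both arrays numbered 7, with Csf1 and Csf3r higher by 2-fold or more and none lower.

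**Figure D1:**
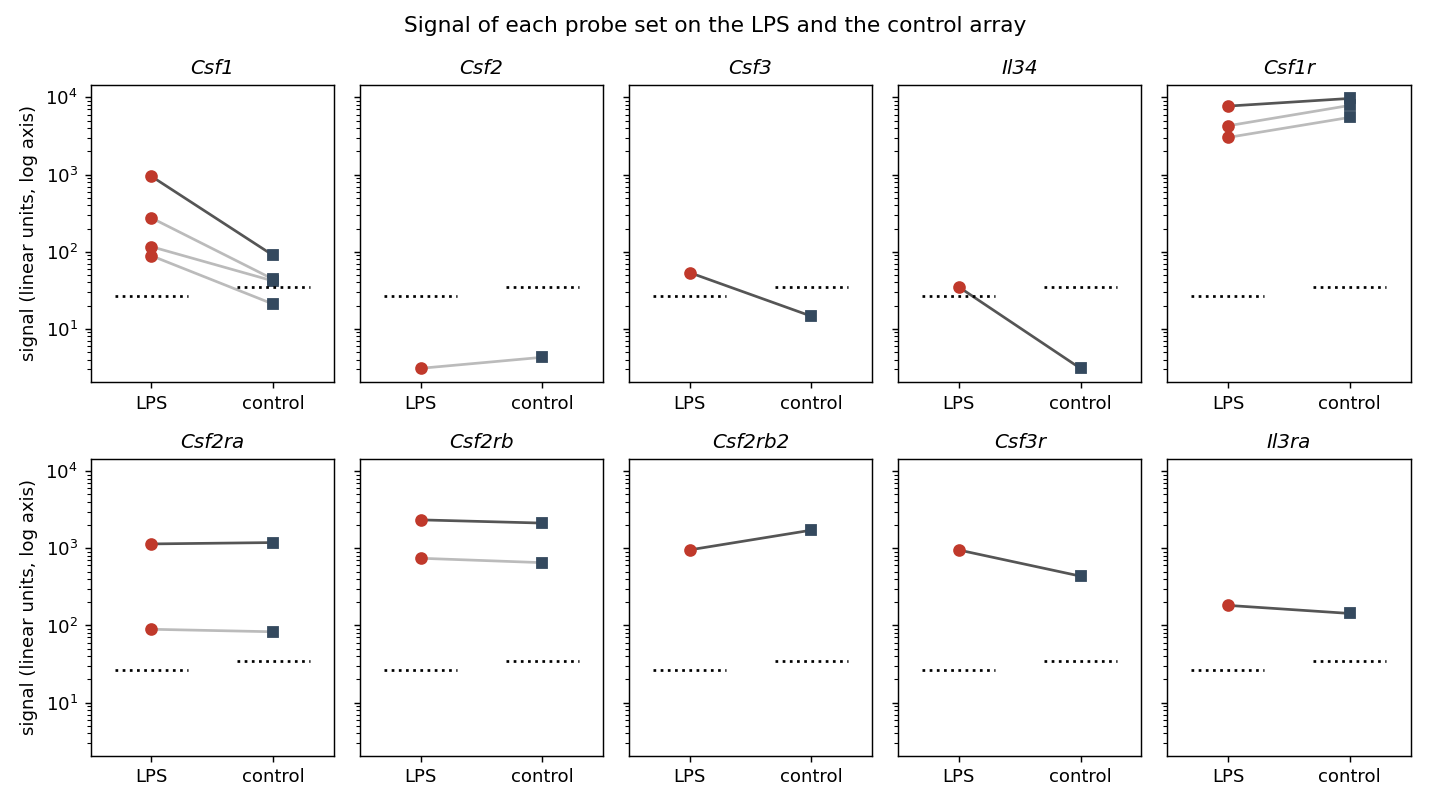
Signal of every member probe set on the LPS array (red circles) and the control array (dark squares), in linear MAS5 units on a log axis, with lines joining the same probe set and the dark line marking the one that stands for the gene. Dotted segments are the floors, 26.7 for LPS and 35.1 for control. All 4 Csf1 probe sets slope down towards the control, while the Csf1r probe sets lie at 3031 or above on both arrays.

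Csf1, which encodes M-CSF, had the widest difference of the family. Its brightest probe set (1460220_a_at) had a signal of 950.4 on the LPS array and 89.9 on the control array, 10.6-fold higher with a log2 ratio of 3.40. Only 160 of the 11722 measured genes had a higher ratio. The probe set 1448914_a_at read 274.5 with LPS and 44.1 in the control, a log2 ratio of 2.64. It derives from the same source sequence as the first. The pair derived from another source sequence gave smaller ratios. The probe set 1425154_a_at read 116.4 with LPS and 41.8 in the control (log2 ratio 1.48), and 1425155_x_at read 88.8 with LPS and 21.0, under the floor, in the control, at least 2.53-fold higher. All 4 Csf1 probe sets were thus past 2-fold on the higher side, but they did not give 1 size. The 3 that reached the floor on both arrays had an SD of 0.97 in log2 ratio, wider than in 95.5% of the 4494 genes with at least 2 such probe sets, whose median SD was 0.28. The median over the probe sets was 2.06, so the size of the difference depends on which probe set is read. Of the 4 names, 3 carry the suffix that the array uses for probes shared by several transcripts of the same gene, and 1 (1425155_x_at) the suffix for probes that also resemble other sequences.

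Markers of stromal and endothelial cells, which also make M-CSF, were examined beside this result. Their signals summed to 536.4 on the LPS array and 172.3 on the control array over 8 genes. The endothelial receptor gene Kdr read 225.5 with LPS and 63.8 in the control, and Pdgfrb, a receptor gene of mesenchymal cells, read 170.3 with LPS and 3.97, under the floor, in the control. Pecam1 and Cdh5, of the same list, read 34.5 and 29.8 with LPS, above that array's floor but below that of the control array. In the control they read 4.10 and 15.7, under the floor. The collagen genes Col1a1 and Col3a1 and the chemokine gene Cxcl12 were under the floor on both arrays, and Col1a2 read 41.9 with LPS and 36.8 in the control. In RNA of a whole culture, a change in the number of cells of a type and a change in RNA per cell cannot be told apart. The part of these markers in the Csf1 result was not tested.

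The upstream sequences of the 2 members past 2-fold are shown because they are the genes whose transcripts stood higher with LPS. They are the 250 bases before the annotated start in RefSeq (build GRCm38.p6), written 5′ to 3′ on the gene's strand. Such windows were read for 6 members, and Csf1r was not among them. Capitals mark a match to the kappaB motif of NF-kB, the AP-1 motif TGANTCA or the Ets core GGAAGT, each searched on both strands. The Csf1 window is chr3:107760470-107760719 on the minus strand, and the Csf3r window is chr4:126024409-126024658 on the plus strand.
Csf1: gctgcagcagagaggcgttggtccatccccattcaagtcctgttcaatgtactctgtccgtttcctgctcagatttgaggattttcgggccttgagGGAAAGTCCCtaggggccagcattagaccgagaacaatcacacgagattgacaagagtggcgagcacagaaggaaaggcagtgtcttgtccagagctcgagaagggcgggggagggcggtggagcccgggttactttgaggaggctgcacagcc
Csf3r: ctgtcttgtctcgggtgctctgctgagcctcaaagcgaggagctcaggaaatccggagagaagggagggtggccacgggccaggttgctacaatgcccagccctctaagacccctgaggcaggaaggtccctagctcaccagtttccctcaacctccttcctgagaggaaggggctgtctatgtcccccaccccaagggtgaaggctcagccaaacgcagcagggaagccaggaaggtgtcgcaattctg
The Csf1 window held 1 match, to the kappaB motif on the opposite strand, 154 to 145 bases before the start, and it overlapped no other motif. A kappaB match was found in 3.90% of the 32851 windows of this length in the table, an AP-1 match in 6.75% and an Ets core in 19.7%. The Csf3r window held none of these motifs. Among the other members whose window was read, Il3ra held an Ets core, and Csf2ra and Csf2rb2 held none of the 3 motifs. The Csf2 window held none either, but the annotated start it is counted from may lie upstream of the usual one. A match is a run of letters and was not measured as a binding site.

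The other ligands were dim. Csf3, which encodes G-CSF, read 53.6 on the LPS array and 14.6, under the floor, on the control array, at least 1.53-fold higher, or 2.05-fold with the same bound after median centring. Its LPS signal lay above the floor, but not far above it. Il34, the alternative ligand of the M-CSF receptor, read 34.9 with LPS, just above that array's floor, and 3.07 in the control, under it. The LPS signal of Il34 was also just below the floor of the control array, so no fold is given. Csf2, which encodes GM-CSF, read 3.08 with LPS and 4.28 in the control, under the floor on both arrays, and its level has only that bound. Il3, the gene next to Csf2 in the RefSeq gene order and the ligand of Il3ra, read 11.1 with LPS and 13.8 in the control, likewise under both floors. Of the 4 ligands, therefore, only Csf1 reached the floor on both arrays.

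**Figure D2:**
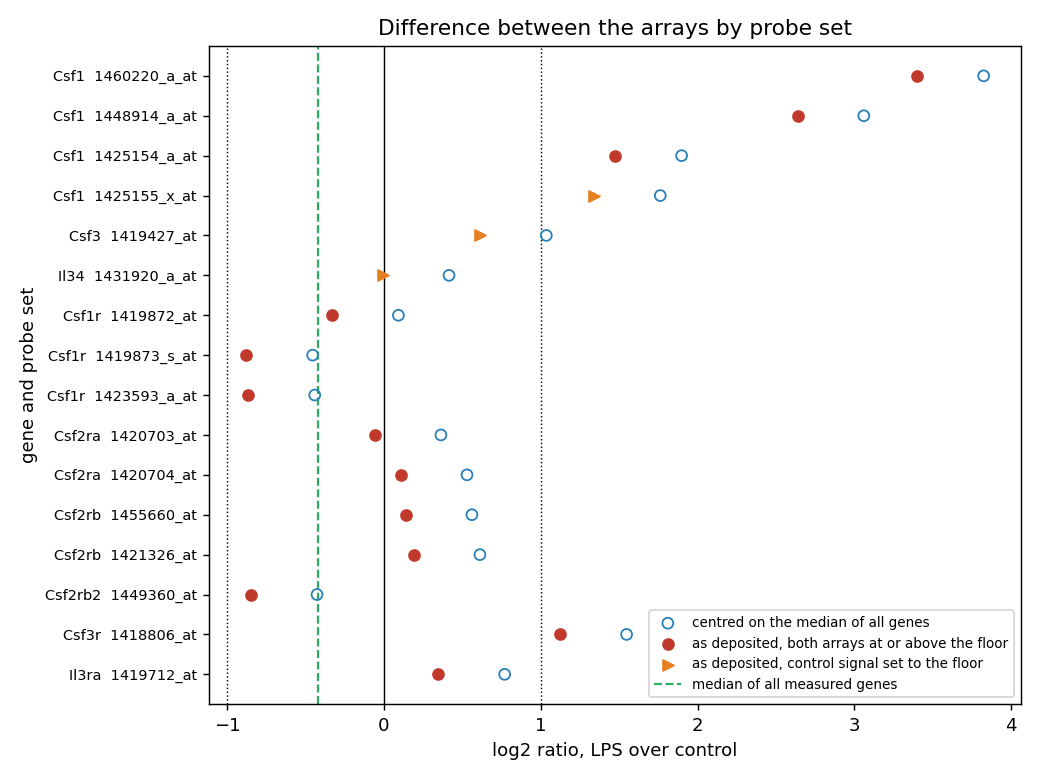
Log2 ratio of LPS over control for the 16 measured member probe sets, as deposited (filled) and centred on the median of all genes (open circles). Triangles have their control signal set to the floor. Dotted lines mark 2-fold and the dashed line the median of all genes at -0.42. The 4 Csf1 probe sets and the Csf3r probe set lie to the right of the 2-fold line as deposited and centred, and that of Csf3 only when centred. No probe set lies beyond 2-fold on the left.

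The receptor for M-CSF and interleukin-34 was bright on both arrays and differed less than 2-fold as deposited. The probe set 1419872_at of Csf1r read 7724 with LPS and 9710 in the control, a log2 ratio of -0.33. This ratio turned to 0.093 after median centring and stayed negative under the other alternatives, with -0.42 under loess. The other probe sets lay lower. The probe set 1419873_s_at read 4291 with LPS and 7880 in the control (-0.88), and 1423593_a_at read 3031 with LPS and 5515 in the control (-0.86). After median centring these were at -0.45 and -0.44. With loess they were at -0.92 and -0.87. With quantile normalization they were at -0.98 and -1.05, the last of these past 2-fold on the lower side. The LPS signal was the lower one in all 3 probe sets as deposited, and their SD of 0.31 was near the median of 0.28 over genes. The Csf1r transcript and that of its ligand Csf1 therefore stood at unequal ratios on these arrays, -0.33 and 3.40.

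The GM-CSF receptor chains read much the same on both arrays. Csf2ra, the alpha chain that gives the receptor its specificity, had signals of 1141 with LPS and 1188 in the control (log2 ratio -0.06). Its dimmer probe set had 89.4 with LPS and 82.9 in the control (0.11). The sign for Csf2ra is not settled, since it was 0.36 after median centring, 0.23 with scaling to the poly-A controls, 0.11 with loess and 0.02 as the median of its probe sets. Csf2rb, the beta chain shared by the receptors for GM-CSF, interleukin-3 and interleukin-5, had signals of 2340 with LPS and 2125 in the control (0.14, and -0.02 with quantile normalization). Its other probe set had 744.1 with LPS and 652.3 in the control (0.19). As deposited, the probe sets of each gene were close to each other, with an SD of 0.12 for Csf2ra and 0.04 for Csf2rb. Those of Csf2ra were further apart with loess, at 0.11 and 0.82, and with quantile normalization, at -0.07 and 0.71.

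The beta chain gene of interleukin-3 alone stood apart from its neighbour. Csf2rb2, which lies next to Csf2rb on chromosome 15 and is its near-identical copy, read 955.0 with LPS and 1720 in the control, 1.80-fold lower (log2 ratio -0.85, and -0.43 after median centring). Csf2rb2 was lower on the LPS array under every one of its 10 alternatives. The other floors and other choices of probe set could not change its value, since it has 1 probe set, well above both floors. Its ratio was 0.99 below that of Csf2rb on the log2 scale. A gap at least that wide between probe sets of the same gene was seen in 13.0% of the 2627 genes with 2 probe sets that reached both floors. Since the genes are so alike, probes of either may bind transcripts of both, and the values of Csf2rb and Csf2rb2 are uncertain to that extent. Il3ra, the interleukin-3 alpha chain, read 182.3 with LPS and 143.3 in the control, a log2 ratio of 0.35 that was 0.77 after median centring. Of the mast cell and basophil markers, which mark the cells best known for responding to interleukin-3, 1 of 6 was measured. This was Gata2, with 76.3 on the LPS array and 63.0 on the control array, while Cpa3, Mcpt8, Fcer1a, Ms4a2 and Tpsb2 were under the floor on both. The 6 summed to 129.1 with LPS and 89.3 in the control, sums that include the signals under the floor of every gene but Gata2.

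Csf3r, the G-CSF receptor gene, was the receptor with the highest ratio. It read 951.4 with LPS and 436.2 in the control, 2.18-fold higher (log2 ratio 1.12, and 1.55 after median centring). It has 1 probe set, so no other reading of the gene exists on this array, and 871 measured genes had a higher ratio. Csf3r is a known neutrophil gene, and markers of neutrophils and their precursors were read beside it. Over the 9 such genes on the array the summed signal was 930.7 with LPS and 912.7 in the control. The granule genes Mpo, Elane, Prtn3 and Camp were under the floor on both arrays. The calprotectin genes S100a8 and S100a9, which monocytes also express, read 440.4 and 152.6 with LPS, against 269.8 and 96.0 in the control. Mmp8, a neutrophil collagenase gene, went the other way, with 182.7 with LPS and 435.1 in the control. Ngp read 47.0 with LPS and 58.4 in the control, and Ltf read 31.6 with LPS and 10.0, under the floor, in the control. The part of these genes in the Csf3r value was not tested.

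The genes around the receptors were read from 6 lists of 88 genes, of which 76 were measured. Of these, 22 passed 2-fold on the higher side (28.9%) and 14 on the lower side (18.4%), with a median log2 ratio of 0.21. After median centring 30 were higher (39.5%) and 11 lower (14.5%). For all measured genes the shares given above were 8.22% higher and 26.2% lower as deposited. After centring they were 13.1% higher and 15.3% lower, so that the centred share of lower genes was about that of all genes. The lists were chosen with earlier results of these data known, so a share above that of all genes is no test of them.

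One list held the Janus kinases and STATs that carry the signal of the GM-CSF, G-CSF and interleukin-3 receptors together with their feedback inhibitors and target genes, and 6 of its 18 measured genes passed 2-fold on the higher side and 1 on the lower. The median log2 ratio of these genes was 0.70, and 10 were higher after centring. Socs3, the feedback inhibitor that binds the G-CSF receptor, read 9783 with LPS and 109.6 in the control, 89.3-fold higher. Socs1, another inhibitor of Janus kinases, read 759.9 with LPS and 5.33, under the floor, in the control, at least 21.7-fold higher. Jak2, the kinase attached to the common beta chain, read 4638 with LPS and 341.3 in the control, 13.6-fold higher, and its probe sets lay between 3.76 and 3.81 on the log2 scale. The gene against the direction was Sh2b3, an adaptor that restrains cytokine receptor signalling, with 165.5 on the LPS array and 580.5 on the control array, 3.51-fold lower.

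Among the adaptors, kinases and phosphatases next to the receptors, 3 of 17 measured passed 2-fold on the higher side, 2 on the lower side and 12 on neither. Their median of 0.07 turned to -0.02 with quantile normalization and to -0.03 when a gene was read as the median of its probe sets. The kinase gene Src read 323.6 with LPS and 18.3, under the floor, in the control, at least 9.23-fold higher. Syk, which acts downstream of the adaptor DAP12, read 3369 with LPS and 1273 in the control, 2.65-fold higher, with its probe sets between 0.33 and 1.40 on the log2 scale. Inpp5d, which encodes the phosphatase SHIP1, read 96.1 with LPS and 1118 in the control, 11.6-fold lower.

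The transcription factors of Csf1r and other myeloid receptor genes went both ways, with 6 of 14 measured past 2-fold on the higher side, 3 on the lower side and a median of -0.10 that turned to 0.32 after median centring, 0.18 with scaling to the poly-A controls and 0.05 with plain probe sets alone. Cebpa, a factor of granulocyte and monocyte precursors that is known to act at the Csf3r gene, read 30.0 with LPS and 817.4 in the control, 27.2-fold lower. Its LPS signal lay just above that array's floor of 26.7, so the size of this fold is uncertain. Ets2, a factor activated downstream of the M-CSF receptor, read 1449 with LPS and 140.4 in the control, 10.3-fold higher. Gfi1, a repressor needed for the formation of neutrophils, read 439.9 with LPS and 5.26, under the floor, in the control, at least 12.5-fold higher.

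Of 12 measured genes of the growth response to M-CSF, 3 passed 2-fold on the higher side and 4 on the lower side. Their median of -0.20 was positive under 5 of the 10 alternatives. Ccnd2, which encodes cyclin D2, read 5571 with LPS and 103.1 in the control, 54.0-fold higher, and Myc read 224.3 with LPS and 50.6 in the control, 4.44-fold higher. E2f2, an activator of replication genes, read 36.7 with LPS and 204.8 in the control, 5.58-fold lower. The LPS signal of E2f2 was not far above that array's floor of 26.7, so the size of this fold is uncertain. Factors that control the decay of AU-rich mRNAs, a class that includes the transcripts of Csf2 and Csf3, were 3 higher and 3 lower of 9 measured. Zfp36l2 read 156.4 with LPS and 3998 in the control, 25.6-fold lower, with its probe sets between -4.68 and -2.16. Zfp36l1 read 129.1 with LPS and 2931 in the control, 22.7-fold lower. Zc3h12a, which encodes the RNase Regnase-1, read 1073 with LPS and 78.1 in the control, 13.7-fold higher. The median of this list was 0.47, and it was -0.48 with plain probe sets alone.

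Of the related ligands and receptors, 6 of 12 on the array were measured, and 1 passed 2-fold in each direction. Kitl, which encodes stem cell factor, read 79.7 with LPS and 388.2 in the control, 4.87-fold lower, with its probe sets between -2.28 and -1.08 on the log2 scale. Tnfrsf11a, the receptor gene through which RANK ligand acts with M-CSF on osteoclast precursors, read 515.5 with LPS and 219.8 in the control, 2.35-fold higher, and its other probe set was at 0.75. Adam17, whose protease sheds the M-CSF receptor from the surface, had a log2 ratio of 0.64, with 4102 on the LPS array and 2624 on the control array. Adam17 falls outside the rule for named genes and was picked after its values were seen. The median of this list was 0.00, but -0.52 with the 35th percentile as floor, 0.52 with the 65th and 0.42 after median centring, so its sign is not settled.

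**Figure D3:**
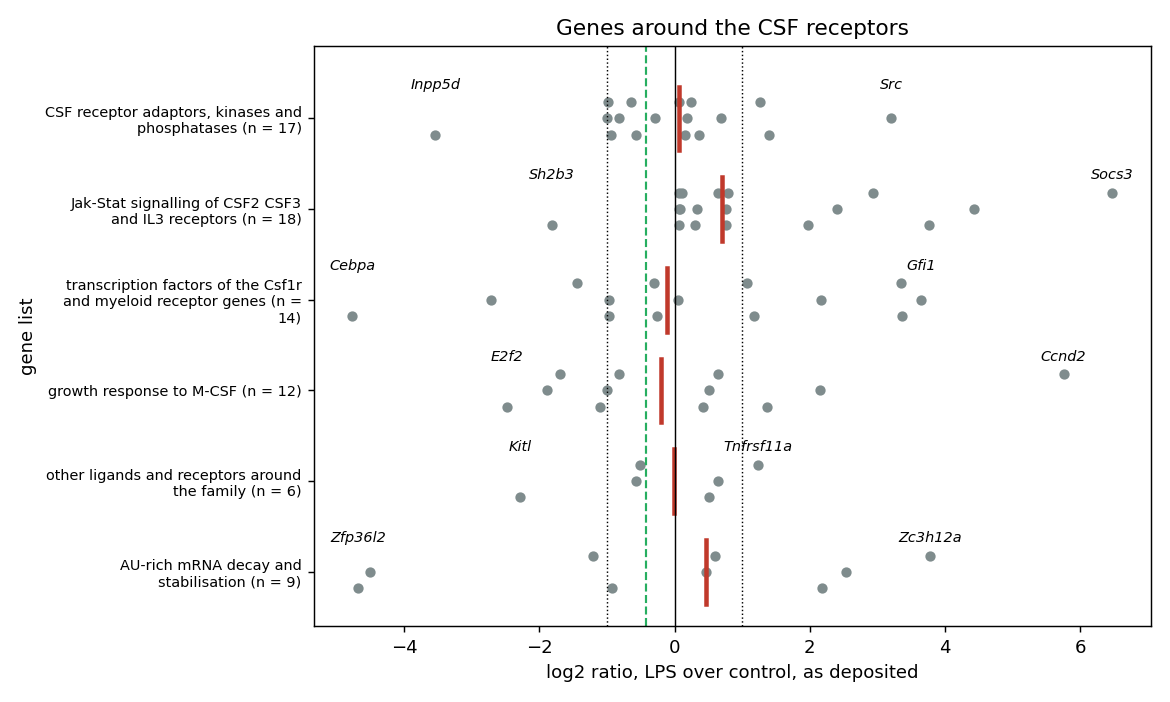
Log2 ratio of LPS over control, as deposited, for the measured genes of 6 lists around the receptors, with 1 point per gene, the list's median as a red bar and the lowest and highest gene named. Points are spread vertically for legibility, dotted lines mark 2-fold and the dashed line the median of all genes at -0.42. Each list has genes beyond 2-fold on both sides, from Cebpa at -4.77 to Socs3 at 6.48.

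**Figure D4:**
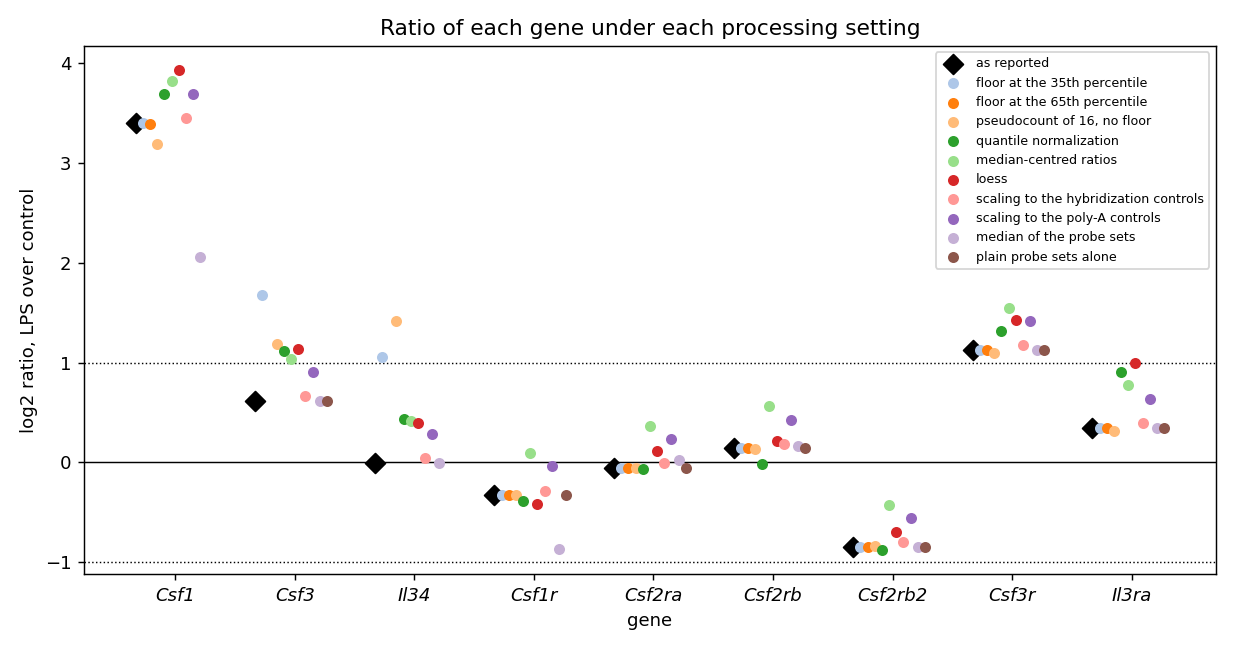
Log2 ratio of LPS over control for the 9 measured members as reported (black diamonds) and under each alternative processing (coloured circles), with dotted lines at 2-fold. Csf1 and Csf3r stay above 2-fold wherever they have a value, Csf2rb2 stays between -0.88 and -0.43, and Csf1 spans 2.06 to 3.93, Csf3 0.61 to 1.68 and Il34 -0.01 to 1.42.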

How the data were processed

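The values the authors deposited are intensity on a linear scale. MAS5 is the tool in the submitters' processing notes, with no version, target of scaling or detection call stated. Arrays were grouped by their titles, 1 LPS and 1 control, and 0 further columns of values were found. The table held 45101 probe sets, 64 of them array controls. Gene names come from the platform annotation. All 17 member probe sets had a gene identifier in the RefSeq table of GRCm38.p6, which changed 0 symbols.

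Signals under the floor (the 50th percentile of each array) were set to it, and the brightest probe set by mean log2 signal stood for a gene. With 1 array per condition there was no test, and genes were counted past 2-fold. The SD between probe sets of the same gene served as a gauge of spread between probe sets. It is read from the same arrays, so it does not cover spread between arrays or cultures. Named genes are all members, up to 3 of each list with the largest ratio past 2-fold, and the gene furthest against the list's median. Alternatives were other floors (35th and 65th percentile), a pseudocount of 16, quantile normalization, median centring, loess (span 0.4), scaling to 18 hybridization or 24 poly-A controls, other choices of probe set and thresholds of 3-fold and 1.5-fold. Members, lists and settings were chosen with earlier results of these data known. The steps were run on simulated data, with 3-fold changes put only into genes well above the control floor and a shift alike at every brightness. That run does not cover genes near the floor or a shift that varies with brightness. Python 3.11.15 with pandas 2.3.3 and statsmodels 0.14.6 was used.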

Additional observations from a re-analysis of the deposited data

Results flagged for a closer look

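The probe set 1450200_s_at is assigned to both Csf2rb2 and Csf2rb and so belongs to no single member, and it was left out of the comparisons above. It read 302.3 on the LPS array and 194.9 on the control array, a log2 ratio of 0.63, and of 1.06 after median centring. It stands out because its LPS signal was above the control signal and its ratio lay above those of both genes it is assigned to, -0.85 for Csf2rb2 and 0.14 and 0.19 for Csf2rb. Its source sequence in the annotation is the same as that of the Csf2rb probe set 1421326_at.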

How the results depend on the processing

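With 1 array per condition no spread between replicates exists, and a value is said to move if it shifts by more than 0.28, the median SD between probe sets of a gene. Signals near the floor carry little information, which touches Csf3, Il34 and Csf2 above all. The array-wide shift bears on ratios under 2-fold, but by less among bright genes. Its median was -0.42 over all measured genes and -0.08 at a mean log2 signal of 11 to 14. No paired analysis was possible because each group has 1 array.

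The number of members at least 2-fold higher, 2 as reported, was 4 if the floor was the 35th percentile or if a pseudocount of 16 took its place, and 1 with plain probe sets alone, which hold no Csf1 probe set, and at 3-fold. The number lower was 0, and 1 at 1.5-fold. At 1.5-fold 23 pathway genes were lower, against 14. Median centring gave log2 ratios of 3.82 for Csf1, 0.093 for Csf1r, 0.36 for Csf2ra, 0.56 for Csf2rb, -0.43 for Csf2rb2, 1.04 for Csf3, 1.55 for Csf3r, 0.42 for Il34 and 0.77 for Il3ra. Scaling to the poly-A controls gave 3.69 for Csf1, -0.041 for Csf1r, 0.23 for Csf2ra, 0.43 for Csf2rb, -0.56 for Csf2rb2, 0.90 for Csf3, 1.41 for Csf3r, 0.28 for Il34 and 0.64 for Il3ra. Both subtract a constant by construction. Quantile normalization gave 3.69 for Csf1, 1.12 for Csf3, 0.43 for Il34 and 0.90 for Il3ra, and loess gave 3.93 for Csf1, 1.13 for Csf3, 1.43 for Csf3r, 0.39 for Il34 and 0.996 for Il3ra. The median of the probe sets gave 2.06 for Csf1 and -0.86 for Csf1r. The floor at the 35th percentile gave 1.68 for Csf3 and 1.06 for Il34, and the pseudocount gave 1.19 for Csf3 and 1.42 for Il34. The floored ratio of Il34 was -0.01 as reported, a value set by the unequal floors. Csf1 kept its direction under 9 of 9 alternatives, Csf3 under 9 of 9, and Csf3r, Il3ra and Csf2rb2 under 10 of 10. These counts include settings that could not change the direction. Median centring and scaling to either kind of control raised every ratio, so they could not turn a positive one. Csf3r, Il3ra and Csf2rb2 have 1 probe set each, above both floors, so other floors and choices of probe set left their values unchanged.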

Other observations

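Csf1r belongs to a family of receptor tyrosine kinases with Kit, Flt3, Pdgfra and Pdgfrb, and it was the only one of the 5 to reach both floors. Pdgfrb, which neighbours Csf1r in the RefSeq gene order, read 170.3 on the LPS array and 3.97, under the floor, on the control array, at least 4.85-fold higher. Kit read 10.7, under the floor, with LPS and 39.5 in the control. Flt3 read 10.5 with LPS and 9.04 in the control, and Pdgfra 18.4 with LPS and 29.3 in the control, all under the floor. This family was picked after values were seen.

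The protein-coding genes next to each member in the RefSeq gene order numbered 17, of which 10 were measured, and Pdgfrb was the 1 that was at least 2-fold higher, with 0 lower. Over all measured genes 8.22% were higher and 26.2% lower, so 1 of 10 is near the share of higher genes overall. The neighbours of Csf1 were Ahcyl1, with 953.1 with LPS and 1259 in the control (log2 ratio -0.40), and Eps8l3, with 27.2 with LPS and 31.7, under the floor, in the control. Mrps15, next to Csf3r, read 1052 with LPS and 1231 in the control (-0.23). The median log2 ratio over the 10 neighbours was -0.004, against -0.42 over all genes.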
